A study of Homo sapiens with 6 samples.

Results

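The genes described here carry glucose into the cell, break it down to pyruvate and lactate, or answer to low oxygen. They were taken from a list of 44 gene symbols, and 40 of these had a probe set annotated to that gene alone, out of 18377 genes tested. Their transcripts were measured in TF-1, a human leukaemia line with erythroid features that grows only with a cytokine. The cells had been transfected with a control vector, named pEGFP in the labels, or with PRL-3, a phosphatase that the human gene PTP4A3 encodes, and each group had 3 arrays of total RNA, numbered 1 to 3 (control) and 4 to 6 (PRL-3). Both lines were kept in RPMI medium that held bovine serum and interleukin-3. The labels do not say whether each transfected line was a clone or a pool, nor which oxygen or glucose level the cultures had.

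Glucose enters most cells through carriers of the SLC2A family, is trapped by hexokinases and is split and oxidised by the glycolytic enzymes, several of which exist as isozymes encoded by related genes. Pyruvate is then either reduced to lactate or passed to mitochondria through pyruvate dehydrogenase, which PDK kinases switch off. When oxygen is low, prolyl hydroxylases such as EGLN1 no longer mark the HIF alpha subunits for destruction, and HIF pairs with ARNT to raise many of these same genes.

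PTP4A3 itself read 7.92, 8.03 and 7.97 in the control arrays and 10.81, 10.93 and 10.79 in the PRL-3 arrays (log2 intensity), so every array matched its label. Of 11 markers of early erythroid and myeloid cells, 10 read above the median of all genes in every array, and IL3RA did not. These markers moved between the groups as well: KIT (means of 7.70 and 8.71 in control and PRL-3 arrays) and CSF2RA rose, TFRC fell, and 8 of the 11 had an unadjusted p under 0.05, 4 in each direction. Their part in the results below was not tested. Of 7 lymphocyte markers 6 read below that median in every array, as did 8 of 10 fibroblast, epithelial or endothelial markers, and NKG7, COL1A1 and KRT18 read above it. Probe sets differ in brightness, so this comparison with the median is only a rough check. Median intensity per array ran from 89.8 to 92.9. The strongest direction of spread within the groups held 63.9% of the within-group variance and set control 1 and PRL-3 5 against control 3.

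Of the 40 genes tested, 7 were higher with PRL-3 and 0 were lower at adjusted p 0.05 in limma, adjusted over all 18377 genes. They were SLC2A3, ENO2, ALDOC, NDRG1, PFKM, VEGFA and P4HA2. Among all genes, 4.58% passed as higher, 3.11% as lower and 7.69% in either direction, against 17.5% higher among these 40. The genes were chosen with earlier results of these data known, so this share and those below are a description and no independent test. At an unadjusted p under 0.05, 13 of the 40 were higher (32.5%) and 1, HK2, was lower (2.5%), where 10.6% of all genes were higher and 9.6% lower. The median difference was 0.08 on the log2 scale over the 40 genes and -0.015 over all genes. The PRL-3 arrays lay entirely above the control arrays in 15 of the 40 genes and entirely below in 1, where 12.1% and 12.2% of all genes did so (24.3% in either direction). A difference is given as PRL-3 minus control on the log2 intensity scale with limma's standard error, and a spread after a level is the SD over 3 arrays. Each array averaged a whole culture, so a change in every cell and a change in the share of cells that make a transcript cannot be told apart. An unequal-variance test, which takes each gene's spread from its own 6 values alone, called 0 of the 40 after adjustment (12 of the 40 at an unadjusted p under 0.05, as were 14.5% of all genes), with the 7 genes at adjusted p of 0.0841 (ALDOC) or higher.

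**Figure D1:**
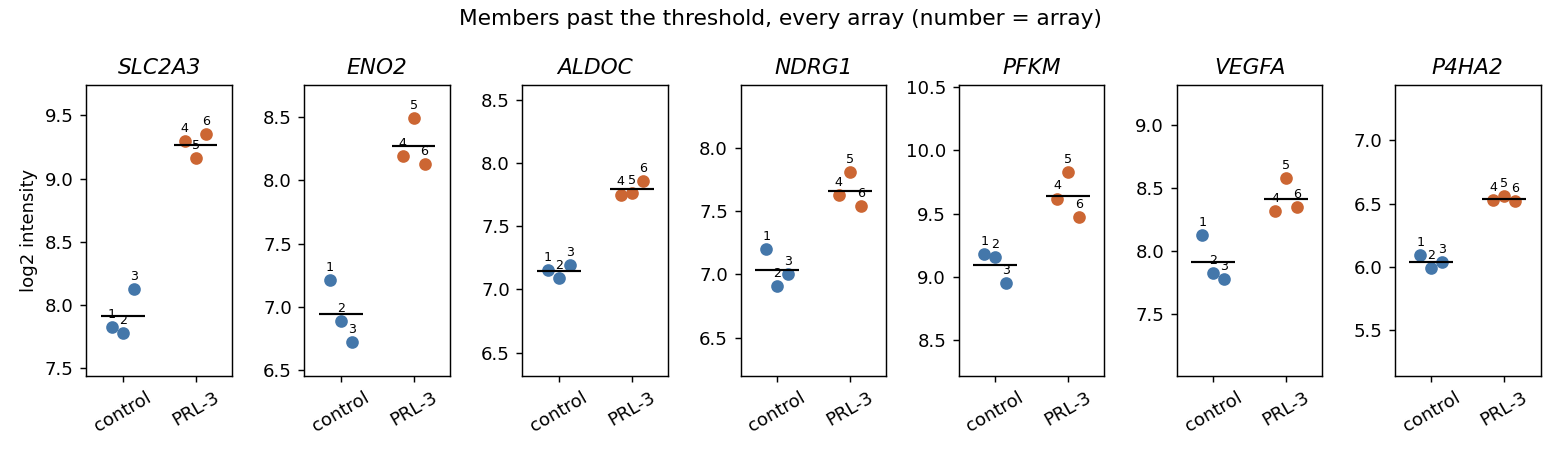
Log2 intensity (y axis) of the 7 genes past the threshold in each array, with control arrays in blue, PRL-3 arrays in orange, the array number above each point and a bar at the group mean. In all 7 genes the lowest PRL-3 array lies above the highest control array, with the narrowest gap in VEGFA, from 8.13 to 8.32.

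Among the glucose carriers SLC2A3, which encodes the high-affinity carrier GLUT3, had the largest rise of the 40 genes. It read 7.83, 7.78 and 8.13 in the control arrays and 9.30, 9.16 and 9.35 in the PRL-3 arrays. No PRL-3 array came near the control arrays, of which control 3 was the highest. The rise was 1.36 ± 0.11 (2.57-fold, adjusted p = 0.000454, limma). SLC2A14, the neighbouring and near-identical copy of SLC2A3, rose as well, by 0.84 ± 0.084 (adjusted p = 0.00127, limma). Each of these probe sets may read part of the other gene's transcript, so how much of the rise belongs to each is uncertain. SLC2A14 read 6.12, 6.16 and 6.18 in the control arrays, below the median of all genes in each. How much of that dim signal was background is not known.

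SLC2A1, which encodes GLUT1, the carrier most cultured cells depend on, behaved differently. It read 9.51, 9.26 and 8.72 in the control arrays and 8.83, 9.48 and 8.78 in the PRL-3 arrays. Control 1, control 2 and PRL-3 5 were high, the other arrays were low, and the groups overlapped fully. Its difference was -0.13 ± 0.24 (adjusted p = 0.835, limma), with a 95% interval from -0.68 to 0.41, and it turned to 0.04 without control 1. The lactate carriers SLC16A1 and SLC16A3 were not analysed here.

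In upper glycolysis, the steps from glucose to triose phosphates, ALDOC and PFKM rose and the other 11 of 13 genes did not pass. ALDOC, the aldolase isozyme best known from brain, read 7.15, 7.09 and 7.19 in the control arrays. In the PRL-3 arrays it read 7.75, 7.76 and 7.86. Both groups were tight, and the rise was 0.65 ± 0.069 (1.57-fold, adjusted p = 0.00158, limma). The ubiquitous aldolase ALDOA read 8.60, 8.50 and 8.09 in the control arrays and 8.26, 8.74 and 8.41 in the PRL-3 arrays. Its groups overlapped, with a difference of 0.07 ± 0.16 and a 95% interval from -0.29 to 0.44.

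PFKM, the muscle-type subunit of phosphofructokinase, which commits glucose to glycolysis, read 9.18, 9.16 and 8.95 in the control arrays and 9.62, 9.83 and 9.47 in the PRL-3 arrays. Every PRL-3 array was above every control array, and the rise was 0.54 ± 0.11 (1.45-fold, adjusted p = 0.0228, limma). The call was lost without control 2 or without PRL-3 4, where adjusted p reached 0.085 in limma. TMEM106C, 1 of the 6 genes taken as neighbours of PFKM, also rose, by 0.50 (adjusted p = 0.0142, limma). The liver-type and platelet-type subunit genes PFKL and PFKP differed by -0.14 ± 0.14 and -0.04 ± 0.14.

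The hexokinases, which phosphorylate glucose on entry, did not pass. HK2, the inducible hexokinase, read 8.20, 8.24 and 8.18 in the control arrays and 7.88, 7.87 and 8.12 in the PRL-3 arrays. It was the 1 gene of the 40 whose PRL-3 arrays all lay below the control arrays, by a difference of -0.25 ± 0.084 (adjusted p = 0.134, limma), and PRL-3 6 lay close to the controls. HK1, the constitutive hexokinase, read 9.41, 9.21 and 9.0 in the control arrays and 9.21, 9.59 and 9.18 in the PRL-3 arrays. The HK1 groups overlapped, and the difference was 0.12 ± 0.14. HK3 differed by -0.06 ± 0.10, GPI, which converts glucose phosphate to fructose phosphate, by 0.05 ± 0.15, and the triose phosphate isomerase gene TPI1 by 0.08 ± 0.14.

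PFKFB2, PFKFB3 and PFKFB4 encode the bifunctional enzymes that set the level of fructose 2,6-bisphosphate, the main activator of phosphofructokinase. They differed by 0.21, 0.18 and 0.14, with adjusted p from 0.161 to 0.631 in limma. In PFKFB2 and PFKFB4 the PRL-3 arrays all lay above the control arrays.

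In lower glycolysis ENO2 rose and the other 7 of 8 tested genes did not pass. ENO2 encodes the gamma subunit of enolase, known as neuron-specific enolase. It read 7.21, 6.89 and 6.72 in the control arrays and 8.19, 8.49 and 8.13 in the PRL-3 arrays. The groups were separated by more than the spread within either. The rise was 1.33 ± 0.14 (2.52-fold, adjusted p = 0.00153, limma). ENO1, the ubiquitous enolase, read 11.40, 11.29 and 10.97 in the control arrays and 10.98, 11.50 and 11.06 in the PRL-3 arrays. Its groups overlapped, with PRL-3 5 the highest array, and the difference was -0.04 ± 0.16 with a 95% interval from -0.40 to 0.32. ENO3, the muscle enolase, differed by 0.48 ± 0.14 without overlap of the groups (adjusted p = 0.0967, limma).

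The abundant enzymes of the lower pathway did not pass the threshold. GAPDH, which oxidises the triose phosphate, read 12.36, 12.09 and 11.89 in the control arrays and 12.23, 12.53 and 12.25 in the PRL-3 arrays. PGK1, which makes the first ATP of the payoff phase, read 9.39, 9.26 and 9.15 in the control arrays and 9.28, 9.48 and 9.29 in the PRL-3 arrays. PKM, the pyruvate kinase gene of most tissues, read 10.00, 9.78 and 9.41 in the control arrays and 9.97, 10.37 and 9.90 in the PRL-3 arrays. In all 3 genes the groups overlapped, and the differences were 0.22 ± 0.13, 0.08 ± 0.09 and 0.35 ± 0.17 (adjusted p from 0.312 to 0.704, limma). The 95% interval of PKM ran from -0.04 to 0.74, so a rise of the size seen in PFKM lies inside it. A single probe set stood for PKM, so its splice forms were not separated.

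Both lactate dehydrogenase genes varied little between arrays and did not pass. LDHA, whose subunit favours making lactate, read 11.30, 11.26 and 11.19 in the control arrays and 11.20, 11.23 and 11.19 in the PRL-3 arrays. Its difference of -0.04 ± 0.066 had a 95% interval from -0.19 to 0.11, so a change of the size seen in ALDOC lies outside it. LDHB, whose subunit favours using lactate, read 12.08, 12.09 and 12.17 in the control arrays and 12.29, 12.18 and 12.26 in the PRL-3 arrays. The LDHB groups just failed to overlap, at a difference of 0.13 ± 0.068 (adjusted p = 0.346, limma). PGAM1, the phosphoglycerate mutase gene, had no probe set of its own: 5 probe sets annotated to PGAM1 and PGAM4 together differed by 0.05 to 0.10, with adjusted p from 0.735 to 0.897 in a limma fit of all 28869 probe sets. Several of these enzymes have processed pseudogenes, and signal from such copies cannot be told apart here.

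The promoters of the paired aldolase and enolase genes are shown because in each pair the isozyme of restricted tissue use rose and the ubiquitous isozyme did not pass. Each is the 250 bases before the annotated gene start, written towards the gene, from RefSeq on GRCh38.p14. ALDOC lies at chr17:28576896-28577145 on the minus strand, ALDOA at chr16:30064029-30064278 on the plus strand, ENO2 at chr12:6914330-6914579 on the plus strand and ENO1 at chr1:8878687-8878936 on the minus strand. Capitals mark ACGTG and GCGTG, the core letters of the HIF response element, read on either strand, where they appear as CACGT and CACGC.
ALDOC: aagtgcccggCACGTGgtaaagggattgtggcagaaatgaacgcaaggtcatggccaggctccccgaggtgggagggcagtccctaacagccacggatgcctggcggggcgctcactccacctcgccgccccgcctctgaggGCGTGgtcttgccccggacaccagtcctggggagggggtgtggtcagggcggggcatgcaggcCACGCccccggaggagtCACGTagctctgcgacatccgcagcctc
ALDOA: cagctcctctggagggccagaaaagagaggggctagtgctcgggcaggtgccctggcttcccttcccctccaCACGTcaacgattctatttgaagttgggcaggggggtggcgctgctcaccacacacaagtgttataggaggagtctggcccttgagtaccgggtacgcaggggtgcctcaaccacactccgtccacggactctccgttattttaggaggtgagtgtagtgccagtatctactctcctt
ENO2: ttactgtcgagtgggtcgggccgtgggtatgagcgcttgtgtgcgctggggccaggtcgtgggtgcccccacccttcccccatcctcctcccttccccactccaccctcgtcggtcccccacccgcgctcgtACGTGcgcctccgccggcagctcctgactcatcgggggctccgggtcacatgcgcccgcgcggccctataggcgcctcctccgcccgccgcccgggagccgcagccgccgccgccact
ENO1: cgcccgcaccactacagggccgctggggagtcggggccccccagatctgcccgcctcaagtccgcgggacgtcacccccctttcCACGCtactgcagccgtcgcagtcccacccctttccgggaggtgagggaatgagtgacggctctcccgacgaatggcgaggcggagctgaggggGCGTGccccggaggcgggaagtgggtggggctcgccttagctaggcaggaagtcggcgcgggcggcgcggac
The ALDOC window held 4 separate stretches in capitals, at 240, 108, 45 and 28 bases before the start, and the farthest, CACGTG, matches on both strands. The ENO2 window held 1, at 118 bases, the ENO1 window 2 and the ALDOA window 1. Thus both members of each pair held the letters in the single window taken per gene. Which gene start these cells use was not measured, so a window need not be the promoter in use. Promoters of this length were given for 34 of the 40 genes, and 22 of these 34 (64.7%) held either motif, against 51.2% of 14210 tested genes with a promoter. Their median GC content was 69.8%, against 62.8%. Of the 7 genes that rose, 4 had a promoter in the table and 2 of these 4 held a motif, while P4HA2 and PFKM held none. A match of these letters is a description of the sequence and not evidence of binding.

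How far related genes changed by unequal amounts was measured as the log2 ratio of 12 pairs within each array. The ratio of ENO2 to ENO1 lay at -4.20, -4.41 and -4.25 in the control arrays and at -2.79, -3.01 and -2.92 in the PRL-3 arrays. Of the 12 pairs it separated best against its own spread, with a rise of 1.38 from a control mean of -4.29 ± 0.11 to -2.91 ± 0.11 (SD, n = 3 each, exact two-sided permutation p = 0.1). The ratio of SLC2A3 to SLC2A1 rose by 1.49, but varied more, from -1.68 to -0.59 in the control arrays and from -0.32 to 0.57 in the PRL-3 arrays. The ratio of PDK3 to PDK1 was the third without overlap, at 0.39. Among all single genes the groups did not overlap in 24.3%, so 3 of 12 pairs is near that share. For ALDOC against ALDOA the difference was 0.58 and the groups overlapped, with control 3 at -0.91 and PRL-3 5 at -0.98. With 3 arrays against 3 the exact test cannot go below p = 0.1, and after Benjamini-Hochberg adjustment over the 12 pairs no p was below 0.343. A ratio between probe sets shows unequal change and not which transcript is more abundant.

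**Figure D2:**
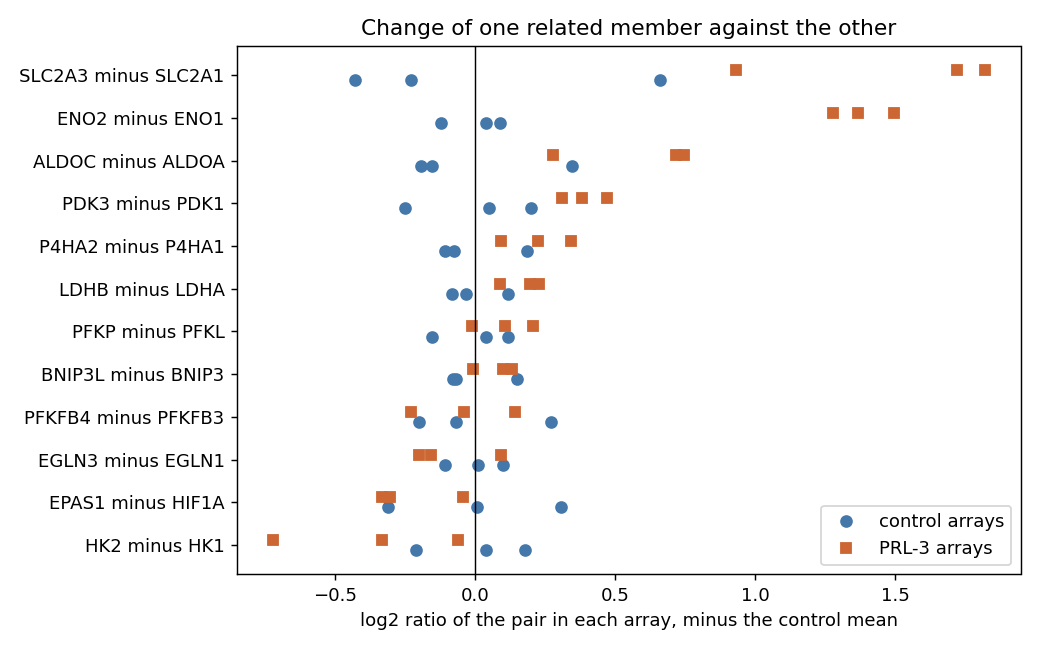
Log2 ratio of each of 12 pairs of related genes in every array, minus the pair's mean in the control arrays (x axis), with control arrays as blue circles and PRL-3 arrays as orange squares. The PRL-3 arrays lie clear of the control arrays for ENO2 against ENO1, SLC2A3 against SLC2A1 and PDK3 against PDK1, and the groups overlap in the other 9 pairs.

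Of the pyruvate dehydrogenase kinases, which hold pyruvate back from the mitochondria, neither passed. PDK1, a well-known HIF target, read 8.68, 8.58 and 8.67 in the control arrays and 8.60, 8.64 and 8.64 in the PRL-3 arrays. Its groups overlapped with a difference of -0.02 ± 0.066 and a 95% interval from -0.17 to 0.13. PDK3 differed by 0.37 ± 0.12 without overlap (adjusted p = 0.114, limma), and passed without control 1.

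None of the 3 HIF transcription factor genes passed. HIF1A, the alpha subunit controlled mostly through its protein's stability, read 9.01, 9.06 and 8.94 in the control arrays and 9.25, 9.19 and 9.19 in the PRL-3 arrays. The groups did not overlap, and the difference was small, at 0.20 ± 0.067 (adjusted p = 0.122, limma). EPAS1, which encodes HIF-2 alpha, read 7.70, 7.45 and 7.02 in the control arrays and 7.30, 7.53 and 7.27 in the PRL-3 arrays, with full overlap and a difference of -0.02 ± 0.16. ARNT, the shared beta subunit, differed by 0.26 ± 0.076 without overlap (adjusted p = 0.0913, limma). Transcript levels do not show HIF protein or its activity.

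Among the hydroxylases, P4HA2 rose and the other 4 of 5 genes grouped with it did not pass. P4HA2 encodes a catalytic subunit of the prolyl hydroxylase that stabilises collagen. It read 6.09, 5.99 and 6.04 in the control arrays and 6.53, 6.56 and 6.52 in the PRL-3 arrays. Both groups were tight around their means, and the rise was 0.50 ± 0.064 (1.41-fold, adjusted p = 0.00366, limma). All of these values lay below the median of all genes in the same array, which ran from 6.78 to 6.82. The signal was thus dim, and how much of it was background is not known. P4HA1, the related subunit, differed by 0.28 ± 0.09 without overlap (adjusted p = 0.113, limma). The oxygen sensors EGLN1 and EGLN3, which are themselves raised by HIF in many cells, differed by -0.01 ± 0.079 and -0.10 ± 0.085. KDM3A, a histone demethylase induced by low oxygen, differed by -0.02 ± 0.072, and the groups overlapped in all 3 of these genes.

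Of the other hypoxia-induced genes NDRG1 and VEGFA rose, and 5 of the 7 tested did not pass. NDRG1, a stress-responsive gene linked to differentiation, read 7.20, 6.91 and 7.0 in the control arrays and 7.63, 7.81 and 7.54 in the PRL-3 arrays. The groups were clearly apart and the rise was 0.63 ± 0.10 (1.54-fold, adjusted p = 0.00881, limma), though it missed the threshold without control 2 (adjusted p = 0.052, limma). VEGFA, the angiogenic growth factor, read 8.13, 7.83 and 7.78 in the control arrays and 8.32, 8.58 and 8.35 in the PRL-3 arrays. Control 1 came close to the PRL-3 arrays. The rise of VEGFA was 0.51 ± 0.11 (1.42-fold, adjusted p = 0.0326, limma). This was the least secure of the 7 calls, and of the 6 fits that left out a single array it passed only in the fit without control 1, with adjusted p up to 0.142 in the others (limma).

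The remaining tested genes of this group did not pass. BNIP3, a mitophagy receptor that HIF raises in many cell types, read 9.17, 9.25 and 9.0 in the control arrays and 9.08, 9.16 and 9.17 in the PRL-3 arrays. Its groups overlapped, and the 95% interval of the difference ran from -0.19 to 0.18. BNIP3L, its relative with a role in clearing mitochondria from red cell precursors, differed by 0.07 ± 0.10. The lipid droplet gene HILPDA, the peptide hormone gene ADM and ANKRD37 differed by 0.02, -0.05 and 0.07, with overlap in each. The 95% intervals ran from -0.25 to 0.3 for HILPDA and from -0.17 to 0.3 for BNIP3L, so modest changes lie inside them. CA9 was not analysed here.

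**Figure D3:**
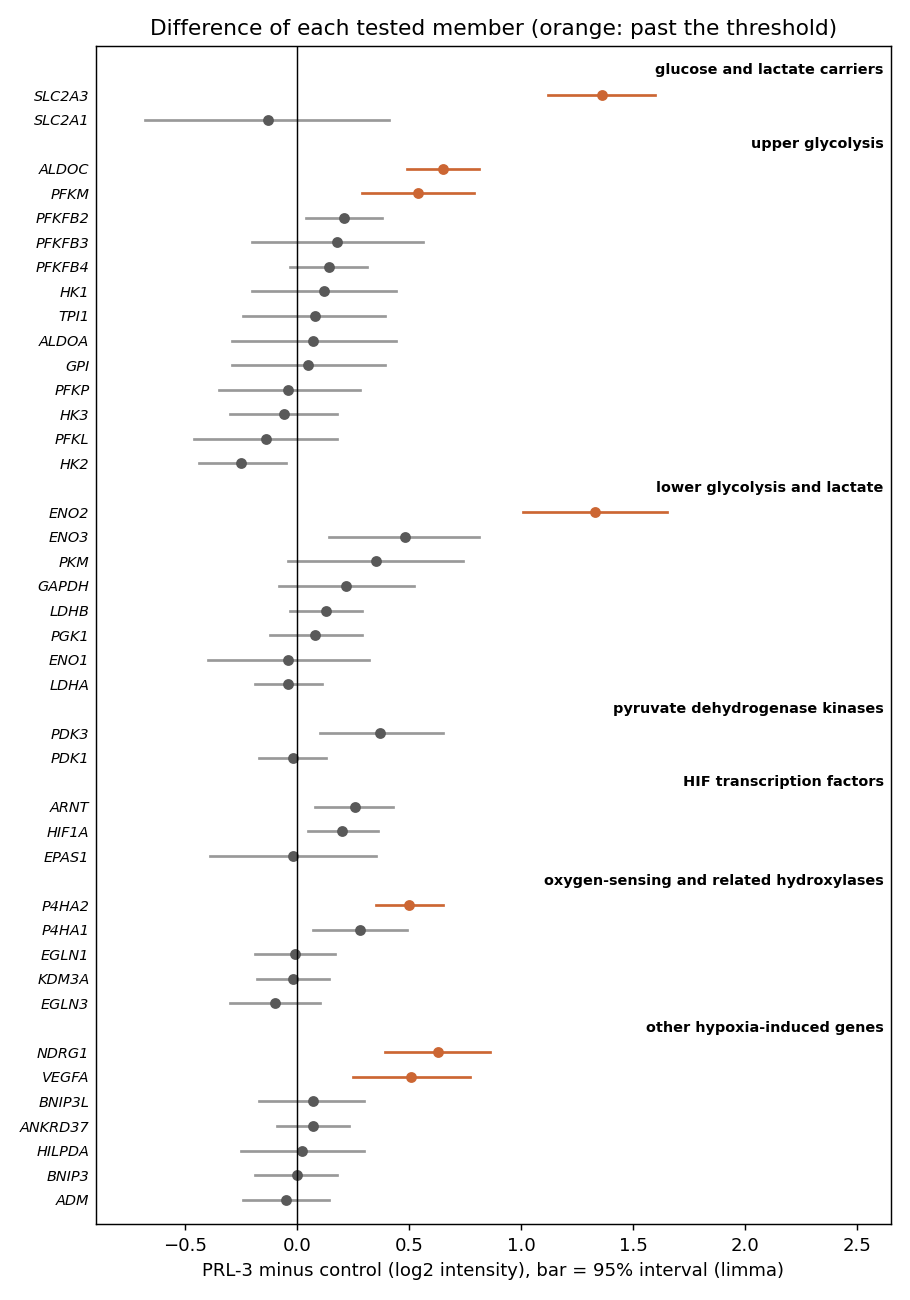
PRL-3 minus control on the log2 intensity scale (x axis) for the 40 tested genes, grouped by role, with limma's 95% interval as a bar and the 7 genes past the threshold in orange. SLC2A3 and ENO2 stand apart at 1.36 and 1.33, the other 5 called genes lie between 0.50 and 0.65, and HK2 is lowest at -0.25.

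Many glycolytic genes shared an order of the arrays within the groups. In 15 of the 21 glycolysis and lactate enzyme genes (71.4%), control 1 was the highest control array, control 3 the lowest control array and PRL-3 5 the highest PRL-3 array. All 3 held in 18.5% of all genes and in 4 of 15 HIF and hypoxia genes (26.7%). ENO2 and PFKM, which passed the threshold, were among the 15 glycolysis and lactate enzyme genes with this order. Control 1 exceeded control 3 by a median of 0.38 over the 21 genes, where the median over all genes was -0.011, and the value was 0.38 after quantile normalization and 0.42 after a shift to a common median. PRL-3 5 exceeded the mean of PRL-3 4 and PRL-3 6 by a median of 0.25 over the 21 genes, against 0.012 over all genes. These counts were chosen after the values were seen, the 21 genes share their arrays, and they are given as a description with no test. SLC2A1, GPI, TPI1 and ENO1 are among the genes whose range within the control arrays exceeded their difference between the groups. The labels name no batch or culture that control 1 and PRL-3 5 share.

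**Figure D4:**
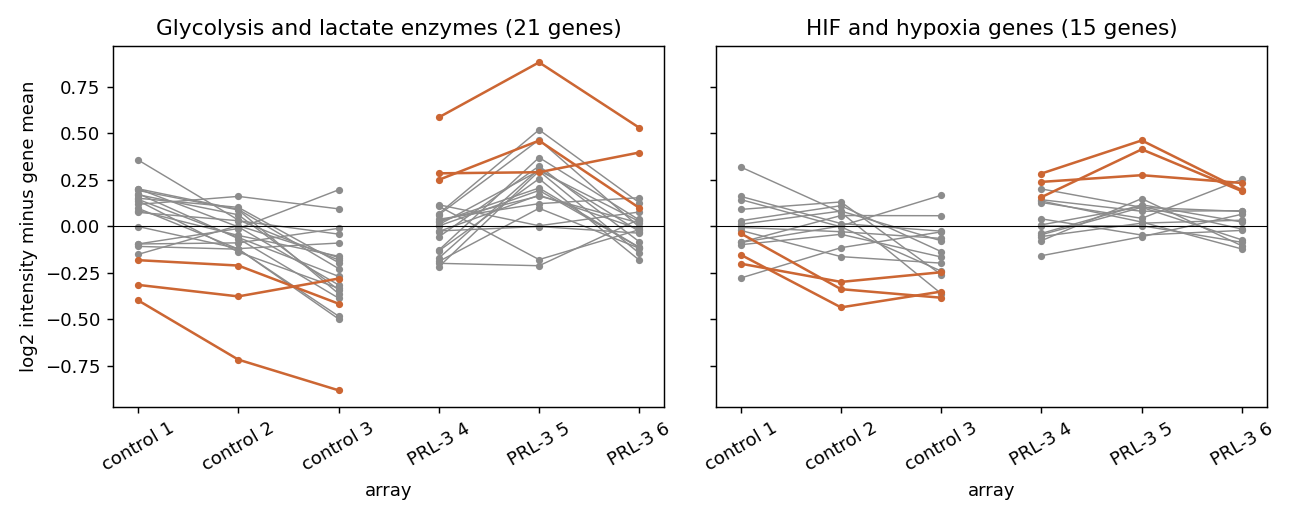
Log2 intensity minus each gene's mean over the 6 arrays (y axis) by array (x axis), for 21 glycolysis and lactate enzyme genes and 15 HIF and hypoxia genes, with lines joining the arrays of 1 gene within a group and genes past the threshold in orange. Most grey lines on the left run from high in control 1 to low in control 3 and peak at PRL-3 5. This shape is held by 15 of the 21 genes, with ENO2 and PFKM (orange) among them.

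With control 1 and PRL-3 5 both left out, all 7 genes passed again and PDK3 joined them. Both arrays lay at the same end of the strongest within-group direction (0.49 and 0.53). Control 1 was also the control array nearest the PRL-3 arrays in VEGFA. Leaving them out can narrow the spread within the groups, so these calls are not further evidence for the genes. A fit chosen after seeing the data took the strongest within-group direction as a covariate. This leaves every difference as it was and takes the largest share of variance out of the residuals, from which more calls can follow by construction, and it called 1976 of all genes higher and 1805 lower. The 7 genes passed in it, ARNT, ENO3, GAPDH, HIF1A, P4HA1, PDK3 and PKM crossed the threshold upwards and HK2 downwards, which is not further evidence for these 8. SLC2A3, ENO2, ALDOC and P4HA2 passed in each of the 6 fits without a single array.

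**Figure D5:**
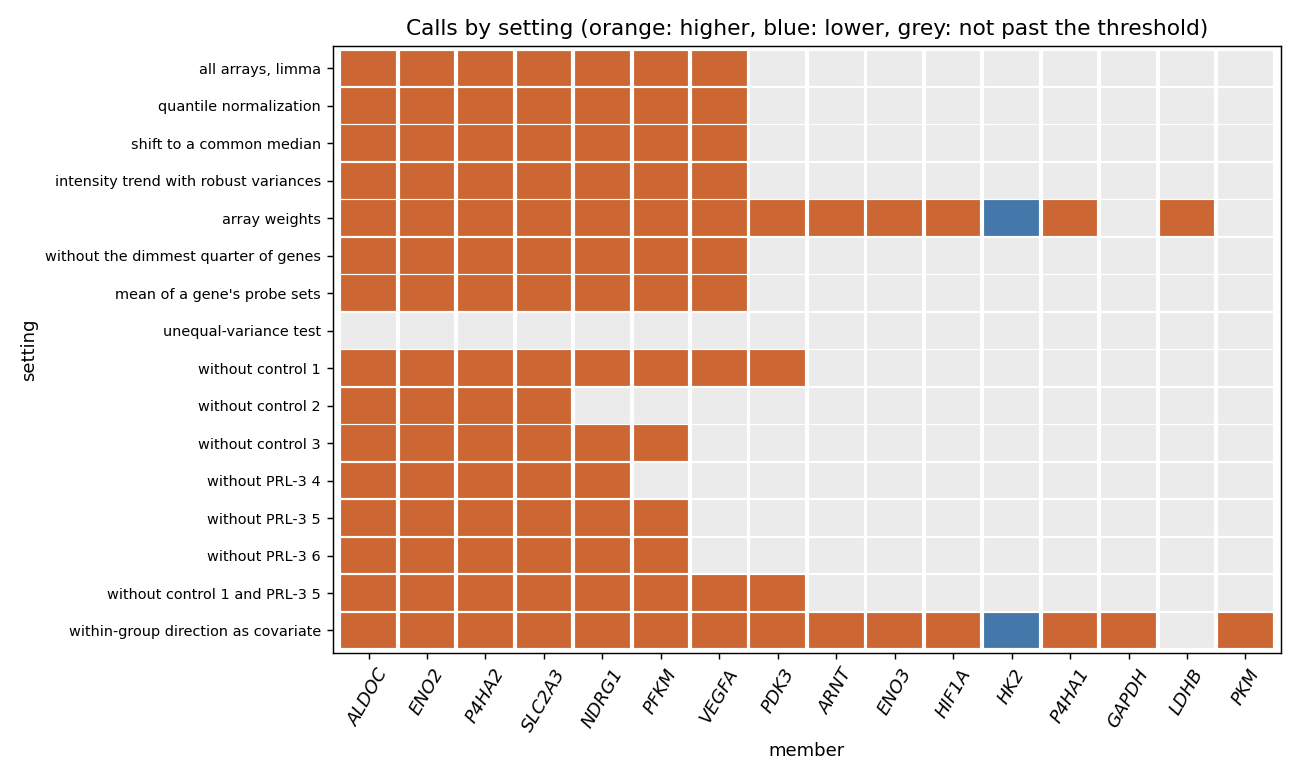
Calls at adjusted p 0.05 for the 16 genes that passed under at least 1 setting (columns) under each setting (rows), with orange for higher, blue for lower and grey for not past the threshold. ALDOC, ENO2, P4HA2 and SLC2A3 are orange in every row except the unequal-variance test, where none of these 16 genes passed.

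The other genes of the same pathways were listed by function. Of 31 other carriers and glycolytic genes 0 rose and 1 fell, PKLR, the pyruvate kinase of liver and red cells (-0.38 ± 0.082, adjusted p = 0.0292, limma). PKLR read 7.14, 7.13 and 6.93 in the control arrays and 6.67, 6.76 and 6.62 in the PRL-3 arrays, without overlap. Its PRL-3 values lay below the median of all genes in the same arrays. Of 11 genes of pyruvate entry to mitochondria 1 rose, PDHA1, the catalytic subunit gene of pyruvate dehydrogenase (0.38 ± 0.086, adjusted p = 0.0348, limma), and 0 fell. In the pentose phosphate pathway, which makes NADPH and ribose, 0 of 11 passed in limma, with 3 higher and 1 lower at an unadjusted p under 0.05. Of 15 glycogen and gluconeogenesis genes, GYG1, which primes glycogen, rose by 0.43 ± 0.084, and GBE1, which branches it, fell by 0.53 on the log2 scale (adjusted p = 0.021 and 0.0269, limma).

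Among the regulators of HIF, such as VHL, HIF1AN and their partners, 0 of 14 passed in limma, with 2 lower and 0 higher at an unadjusted p under 0.05. Of 43 other hypoxia-induced genes 5 rose and 2 fell (11.6% and 4.65%, against 4.58% and 3.11% of all genes). At an unadjusted p under 0.05, 15 of the 43 were higher and 4 lower (34.9% and 9.3%), and in 20 of the 43 (46.5%) every PRL-3 array lay above every control array, where 12.1% of all genes did so. In 4 of the 43 every PRL-3 array lay below every control array. The list was drawn up with earlier results of these data known, so these shares are a description and no independent test. DDIT4, the mTORC1 inhibitor gene induced by several stresses, rose most. It read 6.90, 7.05 and 6.99 in the control arrays and 7.79, 7.74 and 7.67 in the PRL-3 arrays, a rise of 0.76 ± 0.072 (adjusted p = 0.000991, limma). KLHL24 (0.72), the circadian repressor gene BHLHE41 (0.44), DDIT3 (0.42), which is better known from the unfolded protein response, and the nuclear receptor gene RORA (0.36) rose too. In the control arrays BHLHE41 and DDIT3 read below the median of all genes, so their signal there was dim. GBE1 and TFRC, the transferrin receptor gene, fell, the latter by 0.52 on the log2 scale (adjusted p = 0.00273, limma). Several of these genes also respond to stress other than low oxygen or, for TFRC, to iron. Over all 124 other genes of these pathways 7 rose (5.65%) and 3 fell (2.42%), and in 30 (24.2%) every PRL-3 array lay above every control array. At an unadjusted p under 0.05, 23 of the 124 were higher (18.5%) and 11 lower (8.87%). Of these 30 genes with every PRL-3 array above, 20 were in the list of other hypoxia-induced genes. In 12 of the 124 every PRL-3 array lay below every control array, and 4 of these 12 were in that list.

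Of the 42 tested genes that lie next to the 7 on their chromosomes, taken 3 on each side in RefSeq order, 2 rose (4.76%, against 4.58% of all genes) and 0 fell, SLC2A14 beside SLC2A3 and TMEM106C near PFKM. The other 40 did not pass in limma, and the share that rose is near that among all genes.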

How the data were processed

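Biotin-labelled cDNA from total RNA of 6 TF-1 samples was read on a whole-transcript array, per the labels. The deposited table holds 1 intensity per probe set and array, on a linear scale, for 28869 probe sets. How the authors summarised, background-corrected and normalized these values is not given in the sources used here, and they were taken as already normalized because the array medians lay close together. Any normalization between arrays would remove a change shared by most genes.

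Deposited intensities were put on the log2 scale and fitted by lmFit and eBayes of limma 3.58.1 (R 4.3.3), two-sided, with Benjamini-Hochberg adjustment over 18377 genes and a threshold of 0.05. Genes were named through the platform annotation: 19310 probe sets had 1 symbol, 1752 several and 7807 none here. The brightest probe set stood for a gene, and each of the 40 genes had only 1. The table gives no detection call. Whether replicate arrays were separate cultures is not stated in the labels; p-values then reflect the spread among these arrays only, which may be technical, and the number of arrays limits precision.

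The 44 genes, their roles, the pairs and the lists of other genes were chosen with earlier results of these data known. All 40 tested genes may be named. Values in every array are given for genes past the threshold among the 40 and for a set of main enzymes and regulators. Of each list of other genes, all past the threshold are named. A limit of 5 per list had been planned, and the list of other hypoxia-induced genes exceeded it. SLC2A14, TMEM106C and the neighbours were chosen after their values were seen. The fit was tested on simulated data whose noise was independent between genes and between arrays. That test cannot show how the fit behaves under the spread that many genes share within the groups here. Alternatives were quantile normalization, a common median, array weights, robust variances with an intensity trend, a filter on dim genes, the mean of probe sets, an unequal-variance test, and arrays left out. Figures were drawn with matplotlib 3.10.9.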

Additional observations from a re-analysis of the deposited data

How the results depend on the processing

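The 7 genes that rose were the same 7 after quantile normalization, a shift to a common median, an intensity trend with robust variances and a filter on dim genes. The mean of probe sets could not change their values, as each had 1 probe set. Among all genes 842 were higher and 571 lower. Array weights gave 13 higher and 1 lower of the 40 (2122 and 2303 of all genes, and 22 and 16 of the other pathway genes, where 7 and 3 had passed). The weights were 4.7 for control 2 but 0.365 for control 3 and 0.411 for PRL-3 5. That fit thus leaned on control 2 for the control level, and its added calls are not further evidence. The added covariate for the within-group direction gave 14 and 1 of the 40, 1976 and 1805 of all genes, and 23 and 11 of the other pathway genes. The unequal-variance test gave 0 of the 40, 7 and 4 of all genes, and 0 and 1 of the other pathway genes; it drops both the sharing of spread across genes and the common variance of the groups, and which of these lowers the counts was not tested. Leaving out a single array gave 4 (without control 2) to 8 (without control 1) higher of the 40, with 0 lower in each fit. Over all genes these fits called from 388 to 792 higher and from 178 to 747 lower, both fewest without control 2. Of the other pathway genes they called 2 to 8 higher, fewest without control 2 or PRL-3 6, and 1 to 5 lower, most without control 3. Without control 1 and PRL-3 5 the other pathway genes gave 4 higher, and 8 pairs did not overlap in place of 3; leaving out 1 array gave 3 to 6 pairs, as fewer arrays overlap less. No gene past the threshold turned sign, while genes with differences near 0, such as BNIP3, EPAS1 and PFKP, changed sign under some settings without passing. The replicate numbers of the groups do not match, so no paired analysis was possible because the groups share no number.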
